A study of Mus musculus with 9 samples.

Results

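The extracellular signal-regulated kinases ERK1 and ERK2 pass growth factor signals from receptor tyrosine kinases to the nucleus, and the cells that receive such signals switch on genes that limit them. The mRNA of 10 of these ERK feedback genes was followed in mouse cardiosphere-derived cells: the Sprouty genes Spry1, Spry2 and Spry4, the Sprouty-related genes Spred1 and Spred2, the dual-specificity phosphatase genes Dusp4, Dusp5 and Dusp6, and the transcription factor genes Etv4 and Etv5. They were taken by their symbols from a table of 54532 genes, and all 10 passed the filter on low counts in every comparison. Cardiosphere-derived cells are mesenchymal cells that grow out of explanted heart tissue and can be expanded in culture.

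There were 3 groups of 3 RNA sequencing libraries, all from the C57BL/6 strain. Primary epicardium-derived cells (pECDCs) came, per the study's methods, from mice 6 weeks old and were untreated. Immortalized cells (iECDCs) carried a lentiviral human telomerase (hTERT) transgene under a CMV promoter, were 1 line selected with puromycin, and were sequenced untreated at passage 30. The treated cells, per the labels, were the immortalized cells at passage 30 kept for 3 days with SB431542, which blocks the kinase of the TGF-β type I receptor. For these libraries the study's methods instead list an SB431542-treated epithelial clone derived from pECDCs, and its text gives a longer treatment. The labels also name the primary libraries P0, from heart ventricle, whereas the methods give a later passage and the epicardium. The cell of origin, the time and any clonal difference therefore cannot be told apart from the inhibitor in comparisons with the treated libraries. The study's methods speak of biological replicates, but in another number per condition than the labels, and nothing in the labels says that the 3 libraries of a group came from separate cultures. The p-values then measure the spread between these libraries, which may be technical.

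In this pathway, active receptors recruit Grb2 and Sos, which load Ras with GTP, and Raf, MEK and ERK are then phosphorylated in turn. Sprouty and Spred proteins act between receptor and Raf, Dusp proteins remove phosphate from ERK itself, and Etv4 and Etv5 are ETS transcription factors whose genes respond to fibroblast growth factor signalling. Because ERK activity induces most of these genes, their mRNA is widely used as a readout of the pathway, while the phosphorylation of ERK was not measured in these files.

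Total counts were 19462912 to 23951392 in pECDC libraries, 16568306 to 20204216 in iECDC libraries and 17063137 to 20849975 in treated libraries. Replicate 2 of the treated cells and replicate 3 of the iECDCs stood apart from their groups. The chi-square per degree of freedom between pairs of libraries was 2.70 to 4.23 among pECDCs, 4.61 between iECDC replicates 1 and 2 against 24.9 and 30.8 with replicate 3, and 3.79 between treated replicates 1 and 3 against 70.3 and 71.5 with replicate 2. Pearson's r of log2 CPM (counts scaled to library size) for treated replicate 2 was 0.974 with each of the other treated libraries. With the iECDC libraries it was 0.966 to 0.970, whereas treated replicates 1 and 3 had 0.933 to 0.936 with them. With the pECDC libraries, r was 0.964 for treated replicate 2 and 0.9414 to 0.9435 for treated replicates 1 and 3. Results are therefore given with and without these libraries. Of 8 TGF-β target genes used to check the inhibitor, 7 lay below the iECDC mean in every treated library, at a list median of 12.2%, 22.6% and 8.53% of that mean in replicates 1, 2 and 3. The eighth, Tgfbi, rose by 3.53 on the log2 scale (adjusted p = 0.00405). Cdkn2a, chosen after its values were seen, had 407 to 562 counts in pECDC libraries and at most 1 count in every iECDC and treated library.

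All 6 mesenchymal markers (Thy1, Eng, Pdgfra, Col1a1, Ly6a and Tbx18) reached 1 FPKM in every library, with summed levels of 613 to 1071 FPKM. In treated cells over iECDCs 2 of the 6 passed, both higher (16.0% of all genes were called higher). Ly6a was at 5.08 to 7.11 FPKM in iECDCs and rose to between 16.2 and 37.02 in treated cells (log2 fold change 2.25, adjusted p = 0.00262), and Pdgfra rose by 0.96. Tbx18 did not pass there (adjusted p = 0.0626), at 18.8 to 25.0 FPKM in iECDCs and 39.7, 22.9 and 41.8 in treated replicates 1, 2 and 3. It rose by 0.84 in treated cells over pECDCs. Tnnt2, the cardiomyocyte marker that accounted for most of its list, was at 1.12 to 1.67 FPKM in iECDCs and fell to between 0.0429 and 0.250 in treated cells (log2 fold change -3.07, adjusted p = 0.00378). Summed FPKM of the endothelial markers was at most 0.165, of the cardiomyocyte markers at most 1.68 and of the haematopoietic markers at most 4.41, and in each library 0 to 3 of 4, 2 to 4 of 5 and 1 to 2 of 4 of them had no count. The 7 epithelial or mesothelial markers summed to 18.6 to 19.9 FPKM in pECDCs, 29.0 to 31.4 in iECDCs and 24.9 to 39.8 in treated cells, almost all of it Krt19. Upk3b, an epicardial and mesothelial marker, was at 1.16, 1.31 and 1.36 FPKM in the treated libraries and at most 0.166 FPKM elsewhere. Wt1, another epicardial marker, had 43, 14 and 39 counts in the treated libraries (0.396, 0.107 and 0.348 FPKM), 3 to 14 counts in pECDCs and at most 2 counts in iECDCs. The epithelial markers Krt8, Krt18 and Cdh1 stayed near the floor in treated libraries, at no more than 1, 0 and 2 counts. Msln had 5 to 18 counts there, 5 to 9 in pECDCs and 0 to 6 in iECDCs. The part of such marker changes in the results below was not tested. In bulk RNA, fewer cells that express a gene and less RNA per cell cannot be told apart.

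Promoter windows of 250 bases before the RefSeq start site (GRCm38.p6) were used for 7 of the 10 genes, in 8 windows. Spry4 was left out of this step by choice, and Dusp4 and Etv4 had no entry in the promoter set used. The windows of Dusp5 and Dusp6, which fell in the treated cells, are shown beside that of Spry2, which did not pass the threshold in those cells with all libraries and was higher without treated replicate 2. The Dusp5 stretch, chr19:53528895-53529108 on the plus strand, ends before the gene start of the deposited table. Dusp6 is at chr10:99262981-99263230 on the plus strand and Spry2 at chr14:105896820-105897069 on the minus strand. Capitals mark motif matches.
Dusp5: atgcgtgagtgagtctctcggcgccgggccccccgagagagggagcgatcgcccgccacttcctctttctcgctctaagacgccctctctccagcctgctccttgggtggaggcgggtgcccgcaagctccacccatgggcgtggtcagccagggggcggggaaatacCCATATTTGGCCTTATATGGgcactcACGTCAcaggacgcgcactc
Dusp6: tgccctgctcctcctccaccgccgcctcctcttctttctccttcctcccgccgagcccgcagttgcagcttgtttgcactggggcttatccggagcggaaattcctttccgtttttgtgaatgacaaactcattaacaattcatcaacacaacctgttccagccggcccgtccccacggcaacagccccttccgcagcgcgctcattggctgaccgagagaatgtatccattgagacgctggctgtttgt
Spry2: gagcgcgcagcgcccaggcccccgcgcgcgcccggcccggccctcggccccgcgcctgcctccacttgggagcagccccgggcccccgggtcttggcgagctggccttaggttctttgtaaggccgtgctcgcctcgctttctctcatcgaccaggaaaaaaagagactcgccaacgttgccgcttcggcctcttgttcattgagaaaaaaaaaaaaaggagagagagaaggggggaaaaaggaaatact
Motifs were searched on both strands: the ETS core CCGGAA (in 12% of 32851 promoter windows), the AP-1 site TGANTCA (6.75%), the CRE half-site TGACGT (6.47%), the SMAD box CAGACA (17.1%) and the CArG box bound by serum response factor (1.47%), which was added after the Dusp5 sequence was seen. Dusp5 held 2 adjacent CArG boxes at -82 to -73 and -72 to -63 from the RefSeq start and a CRE half-site on the minus strand at -56 to -51. Spred2 held a CRE half-site at -52 to -47. The other windows of these genes, including those of Dusp6 and Spry2, held none of these letters. GC content was 64% for Dusp5, 56.4% for Dusp6 and 62.4% for Spry2, against a median of 52.4% over all windows.

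Levels are compared between genes as FPKM, fragments scaled by gene length and library size. Dusp4 was the highest of the 10 in pECDCs, at 74.4 ± 2.95 FPKM (SD, n = 3), and in iECDCs, at 83.3 ± 6.49. Spry2 came next in both, at 38.0 ± 1.56 and 35.7 ± 9.73, but its iECDC libraries overlapped those of Dusp5. In pECDCs the order then ran Dusp5, Spred2, Spred1, Dusp6, Etv5, Etv4, Spry1 and Spry4, and the neighbours Dusp5 and Spred2, Spred1 and Dusp6, and Etv5 and Etv4 overlapped. Dusp6 stood sixth in pECDCs and eighth in iECDCs, below Etv4 and Etv5. In treated cells Spry2 (52.3 ± 11.8) and Dusp4 (52.2 ± 31.3) led and overlapped, and Spry4 was the lowest at 3.18 ± 0.261. Spry2 carried 68.6% to 85.0% of the summed FPKM of Spry1, Spry2 and Spry4 over the 9 libraries, and within the Dusp trio Dusp4 carried 63.8% to 78.5%. Dusp6 made up 14.0% to 14.5% of the Dusp sum in pECDCs and 6.27% to 6.92% in iECDCs.

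**Figure D1:**
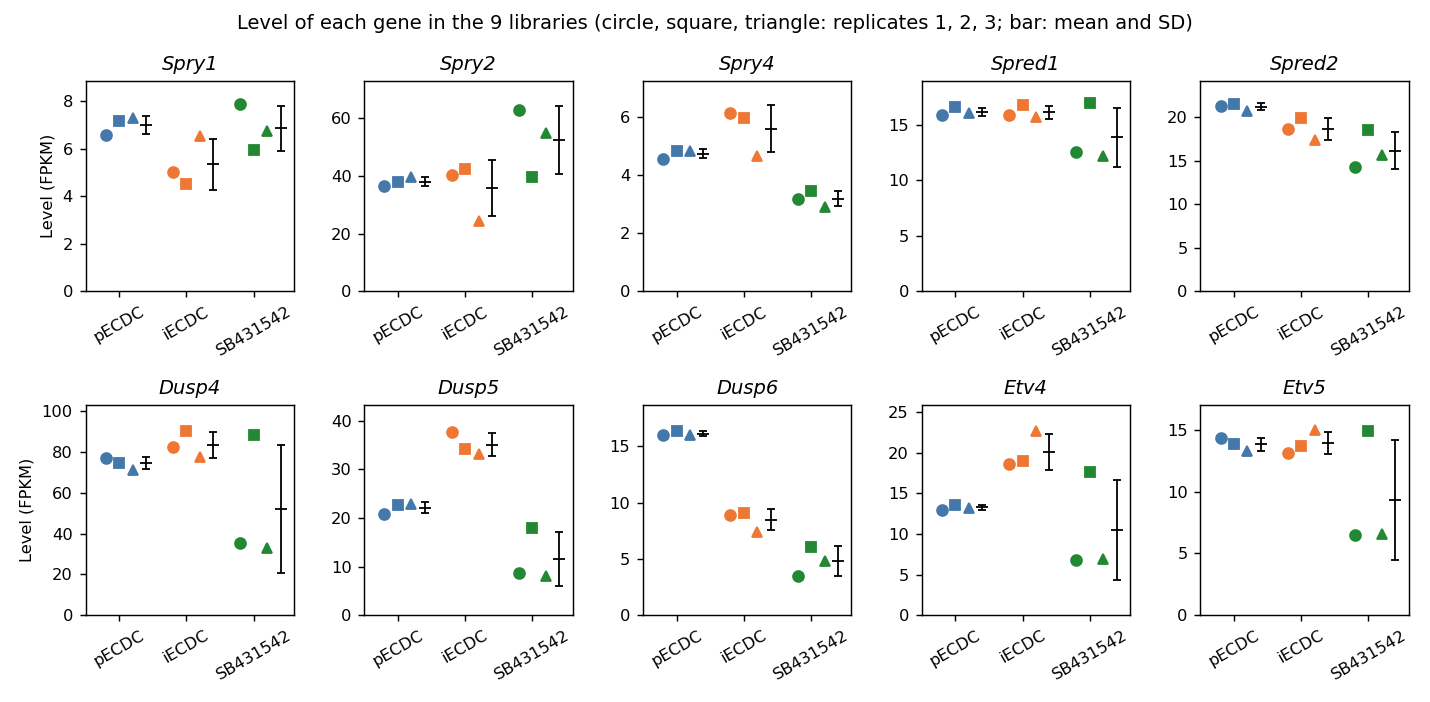
Level of each ERK feedback gene (FPKM, linear axes from 0) in the 3 pECDC, 3 iECDC and 3 SB431542-treated libraries; circles, squares and triangles are replicates 1, 2 and 3, and bars give mean and SD. Dusp5 and Etv4 are highest in iECDCs and Dusp6 in pECDCs, and treated replicate 2 lies above the other treated libraries for Dusp4 (88.3 against 35.5 and 32.7), Dusp5, Dusp6, Etv4 and Etv5.

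Immortalized cells at passage 30 were compared with primary cells. In this comparison hTERT, the lentivirus, puromycin selection, the single line and passage cannot be told apart. Dusp5 and Etv4 rose and Dusp6 fell in iECDCs, and the other 7 genes did not pass an adjusted p of 0.05 by edgeR's quasi-likelihood test. These 3 of 10 genes compare with 16.4% of the 13752 genes tested, 7.21% higher and 9.21% lower. The median log2 fold change of the 10 was -0.01, beside -0.0018 over all genes. In 5 genes the 3 iECDC libraries did not overlap the 3 pECDC libraries (39.6% of all genes). Without iECDC replicate 3, 4 genes rose and 3 fell, against 15.5% of all genes higher, 16.2% lower and 31.7% in all, Spry4 and Dusp4 joining the former and Spry1 and Spred2 the latter.

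Treated cells were compared with iECDCs, which per the labels differ from them in the inhibitor. Dusp5, Dusp6 and Spry4 fell, by 3.01-fold, 1.75-fold and 1.75-fold. The 3 lower genes stand beside 14.0% of 13559 genes called lower, 16.0% called higher and 30.0% called in either direction. The median log2 fold change of the 10 was -0.62, beside 0.0014 over all genes. Etv4 also lay lower in every treated library than in every iECDC library, which made 4 genes with lower, non-overlapping levels (22.8% of all genes). Without treated replicate 2 all 10 genes passed, 8 lower and Spry1 and Spry2 higher, at a background of 24.8% of genes lower, 25.3% higher and 50.2% in all. Without iECDC replicate 3 the calls were Dusp5, Dusp6 and Spry4 again, at a background of 11.9% lower, 13.5% higher and 25.4% in all. Leaving out treated replicate 2 and iECDC replicate 3 together, an alternative chosen after seeing the data, gave 8 lower and 2 higher, with 31.9% of all genes called lower, 32.6% higher and 64.5% in all.

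Treated cells were also compared with pECDCs. Dusp6 fell 3.34-fold, Dusp5 1.90-fold, Spry4 1.48-fold and Spred2 1.30-fold, and these were the only 4 genes of the 10 past the threshold in that fit, against 17.0% of 14015 genes called lower, 17.9% higher and 34.8% in all. The same 4 were the genes whose treated libraries lay below every pECDC library (26.0% of all genes). Without treated replicate 2, 9 of the 10 passed, Spry2 higher and 8 lower, at 31.7% higher, 32.3% lower and 64.1% in all over all genes, and Spry1 remained near 0 (log2 fold change 0.07). The comparisons share libraries: iECDCs stand in the first and the second, pECDCs in the first and the last, and treated cells in the last 2.

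**Figure D2:**
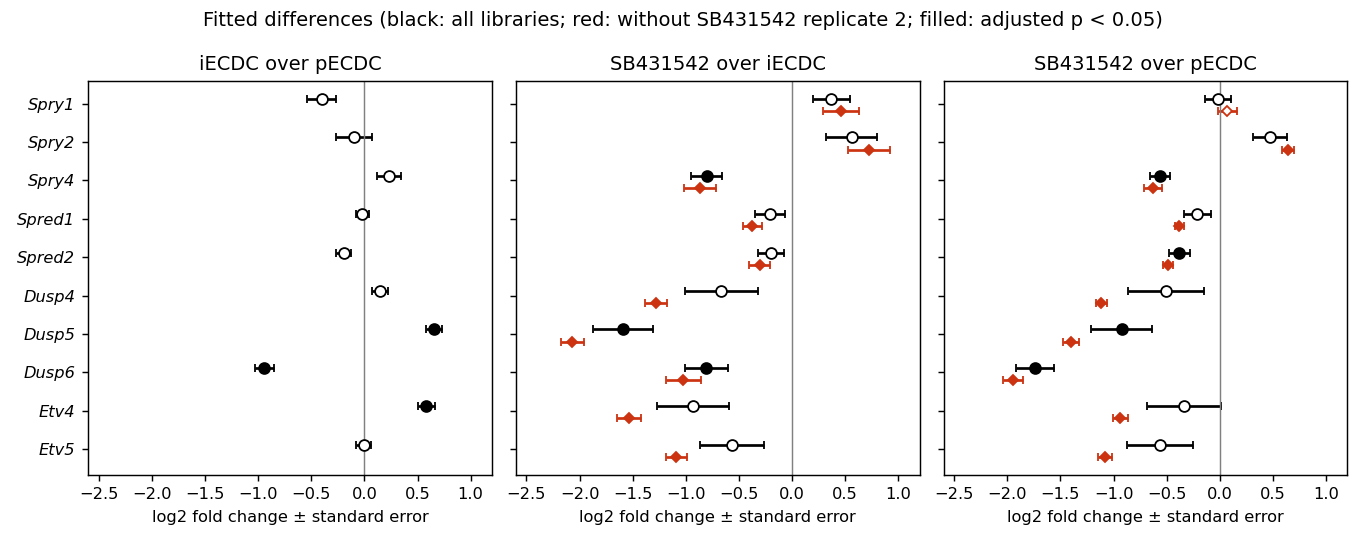
Log2 fold change ± standard error of the 10 genes for iECDCs over pECDCs, SB431542-treated cells over iECDCs and treated cells over pECDCs; black circles use all libraries, red diamonds leave out treated replicate 2, and filled symbols have an adjusted p under 0.05. Dusp5 moves from 0.65 in the left panel to -1.59 in the middle one, Dusp6 is below 0 in all panels, and the red symbols of Dusp4, Etv4 and Etv5 lie lower than the black ones.

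The Sprouty proteins are membrane-associated inhibitors of receptor tyrosine kinase signalling. Spry2 (chr14:105891947-105896819, minus strand, 2 exons) had 36.6, 37.7 and 39.7 FPKM in pECDCs, 40.4, 42.3 and 24.5 in iECDCs and 62.7, 39.4 and 54.9 in treated cells. The low iECDC value was that of replicate 3, and treated replicate 2 lay within the iECDC range while the other treated libraries were above all iECDC libraries. Its log2 fold change was 0.56 ± 0.24 (SE) in treated cells over iECDCs (adjusted p = 0.107) and 0.47 over pECDCs (adjusted p = 0.0602). Without treated replicate 2 it rose over iECDCs by 0.72 (adjusted p = 0.0145) and over pECDCs by 0.64 (adjusted p = 8.0e-09). Between iECDCs and pECDCs it was -0.10, and 0.11 without iECDC replicate 3, neither past the threshold.

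Spry4, on chromosome 18, was lower in treated cells whichever library was left out. It had 4.56, 4.82 and 4.84 FPKM in pECDCs, 6.14, 5.97 and 4.67 in iECDCs and 3.18, 3.44 and 2.92 in treated cells. All treated libraries lay below every other library, and the iECDC and pECDC libraries overlapped through iECDC replicate 3. It fell by 0.80 on the log2 scale over iECDCs (SE 0.15, adjusted p = 0.00707) and by 0.56 over pECDCs (adjusted p = 0.00458), and passed in all 14 and all 13 alternative fits of these comparisons. Over pECDCs, iECDCs differed by 0.23 (adjusted p = 0.190), and by 0.35 without iECDC replicate 3 (adjusted p = 0.00136). Spry4 overlaps Gm27804 and Gm27369 on the other strand, which had 5 and 4 counts over all libraries.

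Spry1 (chr3:37639947-37644598, plus strand, 2 to 3 exons) had 6.57, 7.16 and 7.28 FPKM in pECDCs, 5.01, 4.50 and 6.56 in iECDCs and 7.87, 5.97 and 6.74 in treated cells. The highest iECDC library, replicate 3, lay just under the lowest pECDC library. The log2 fold change of iECDCs over pECDCs was -0.40 (adjusted p = 0.0710) and without that library -0.56 (adjusted p = 0.000188). Treated cells differed from iECDCs by 0.37 (adjusted p = 0.147), or by 0.46 without treated replicate 2 (adjusted p = 0.0465), and from pECDCs by -0.02. The treated libraries of Spry1 overlapped the pECDC libraries, which those of Spry4 did not. The gene overlaps Gm42922 on the other strand, which had 24 counts over all libraries.

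Spred proteins sit at the membrane, bind neurofibromin and restrain Ras and Raf. Spred1 (chr2:117121374-117182279, plus strand) had 15.9, 16.6 and 16.1 FPKM in pECDCs, 15.8, 16.8 and 15.7 in iECDCs and 12.5, 16.9 and 12.1 in treated cells. The pECDC and iECDC libraries overlapped throughout, with a log2 fold change of -0.02 (SE 0.06, adjusted p = 0.854), and treated replicate 2 lay at their level. Treated cells differed from iECDCs by -0.21 (adjusted p = 0.289), and by -0.38 without replicate 2 (adjusted p = 0.00661). Against pECDCs the values were -0.21 (adjusted p = 0.224) and, without that library, -0.38 (adjusted p = 6.1e-07).

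Spred2 (chr11:19924375-20024026, plus strand) had 21.2, 21.5 and 20.7 FPKM in pECDCs, 18.6, 19.9 and 17.4 in iECDCs and 14.3, 18.5 and 15.7 in treated cells. Its levels stepped down over the groups, with pECDCs above all other libraries and iECDCs and treated cells overlapping. The step to iECDCs was -0.20 (adjusted p = 0.0790, and 0.0302 without iECDC replicate 3), and treated cells differed from iECDCs by -0.20 (adjusted p = 0.245, and 0.0284 without treated replicate 2). Over pECDCs it fell by 0.38 in treated cells (SE 0.10, adjusted p = 0.0217). That call was lost on leaving out any pECDC library or treated replicate 1 or 3 (adjusted p = 0.0615 to 0.0860).

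Dusp6 is a cytoplasmic phosphatase specific for ERK, and its mRNA is a common readout of the pathway. Dusp6 (chr10:99263231-99267489, plus strand) had 16.0, 16.4 and 16.0 FPKM in pECDCs, 8.92, 9.09 and 7.40 in iECDCs and 3.48, 6.10 and 4.81 in treated cells. The 3 groups did not overlap at any step. It fell 1.92-fold from pECDCs to iECDCs (log2 fold change -0.94, SE 0.09, adjusted p = 0.000185), a call that held in all 13 alternative fits. In treated cells it fell further, by 0.81 on the log2 scale over iECDCs (SE 0.20, adjusted p = 0.0208) and by 1.74 over pECDCs (adjusted p = 0.000975). The step from iECDCs lost its call without iECDC replicate 1 or 2 or treated replicate 1 or 3 (adjusted p = 0.0579 to 0.0794), and without treated replicate 2 it was -1.02 (adjusted p = 0.000891).

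Dusp5, a nuclear phosphatase for ERK, moved in opposite directions at the 2 steps. Dusp5 (chr19:53529109-53542431, plus strand, 4 exons) had 20.8, 22.7 and 22.8 FPKM in pECDCs, 37.8, 34.2 and 33.2 in iECDCs and 8.65, 18.01 and 7.99 in treated cells. The iECDC libraries were above all others and the treated libraries below all others, replicate 2 nearest to pECDCs. It rose 1.57-fold in iECDCs over pECDCs (log2 fold change 0.65, SE 0.07, adjusted p = 0.000591), although with all 9 libraries in the fit the adjusted p was 0.175. In treated cells it fell by 1.59 over iECDCs (SE 0.28, adjusted p = 0.00641), the change of greatest size among the 10 genes in that comparison, and its log2 fold change without treated replicate 2 was -2.07. This fall held in all 14 alternative fits. Over pECDCs it fell by 0.93 (adjusted p = 0.0447), or by 1.40 without treated replicate 2, a call lost on leaving out any pECDC library or treated replicate 1 or 3 (adjusted p = 0.104 to 0.133). Its promoter, printed above, was the one with CArG boxes. In GENCODE M21 the gene overlaps AC137853.2 on the other strand, which the deposited table lacks, so the reads of that gene could not be counted.

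Dusp4, a nuclear phosphatase that acts on ERK and other MAP kinases, had the widest spread among treated libraries. Dusp4 (chr8:34807297-34819894, plus strand, 4 exons) had 77.2, 74.8 and 71.3 FPKM in pECDCs, 82.2, 90.3 and 77.4 in iECDCs and 35.5, 88.3 and 32.7 in treated cells. Treated replicate 2 lay within the iECDC range, and the other treated libraries were at 42.7% and 39.3% of the iECDC mean. The log2 fold change of treated cells was -0.67 over iECDCs (SE 0.34, adjusted p = 0.174) and -0.51 over pECDCs (adjusted p = 0.303). Without replicate 2 it fell by 1.28 (SE 0.11, adjusted p = 1.9e-05) and 1.12 (adjusted p = 1.3e-12). Immortalized cells differed from primary cells by 0.15 (adjusted p = 0.201), and by 0.20 without iECDC replicate 3 (adjusted p = 0.00497).

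Etv4 and Etv5 belong to the PEA3 group of ETS factors, which carry fibroblast growth factor signals into transcription. Etv4 (chr11:101769742-101785371, minus strand) had 13.0, 13.6 and 13.2 FPKM in pECDCs, 18.7, 19.0 and 22.6 in iECDCs and 6.83, 17.6 and 6.95 in treated cells. Treated replicate 2 was above the pECDC libraries and just under the iECDC libraries, and the other treated libraries were below all of them. Etv4 rose 1.499-fold in iECDCs over pECDCs (log2 fold change 0.58, SE 0.08, adjusted p = 0.00205), although with all 9 libraries in the fit the adjusted p was 0.307. Treated cells differed from iECDCs by -0.93 (SE 0.34, adjusted p = 0.0704) and from pECDCs by -0.33 (adjusted p = 0.487). Without replicate 2 Etv4 fell by 1.53 (adjusted p = 1.1e-05) and by 0.94 (adjusted p = 9.4e-10). The difference from iECDCs passed in 6 of 14 alternative fits, among them DESeq2 (adjusted p = 0.0247) and that of all 9 libraries (adjusted p = 0.0316).

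Etv5 (chr16:22381309-22439719, minus strand) had 14.3, 13.9 and 13.3 FPKM in pECDCs, 13.2, 13.7 and 14.97 in iECDCs and 6.48, 14.9 and 6.54 in treated cells. The pECDC and iECDC libraries overlapped, with a log2 fold change of -0.0045 (SE 0.07, adjusted p = 0.975), so the rise of Etv4 between these cells had no counterpart past the threshold in Etv5. Treated replicate 2 lay within the iECDC range while the other treated libraries stood at 46.5% and 46.9% of the iECDC mean. Treated cells differed from iECDCs by -0.57 (adjusted p = 0.180) and from pECDCs by -0.56 (adjusted p = 0.197). Without replicate 2 Etv5 fell by 1.09 (adjusted p = 3.0e-05) and by 1.08 (adjusted p = 5.4e-11).

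Treated replicate 2 thus differed from the other treated libraries gene by gene. Relative to the iECDC mean, 8 of the 10 genes were lower in treated replicates 1 and 3, and 5 of the 10 in replicate 2. The share of all genes below that mean was not counted, so these counts have no background to be read against. In replicate 2, Dusp4 stood at 106% of the iECDC mean, Etv5 at 107% and Spred1 at 105%, whereas Dusp5 stood at 51.3%, Spry4 at 61.5% and Dusp6 at 72.1%. In replicate 1 the last 3 stood at 24.6%, 56.9% and 41.1%, and in replicate 3 at 22.8%, 52.2% and 56.7%. Spry4 was therefore the gene whose treated libraries lay closest together. The TGF-β targets were below the iECDC mean in that library too, 7 of 8 as in the others.

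**Figure D3:**
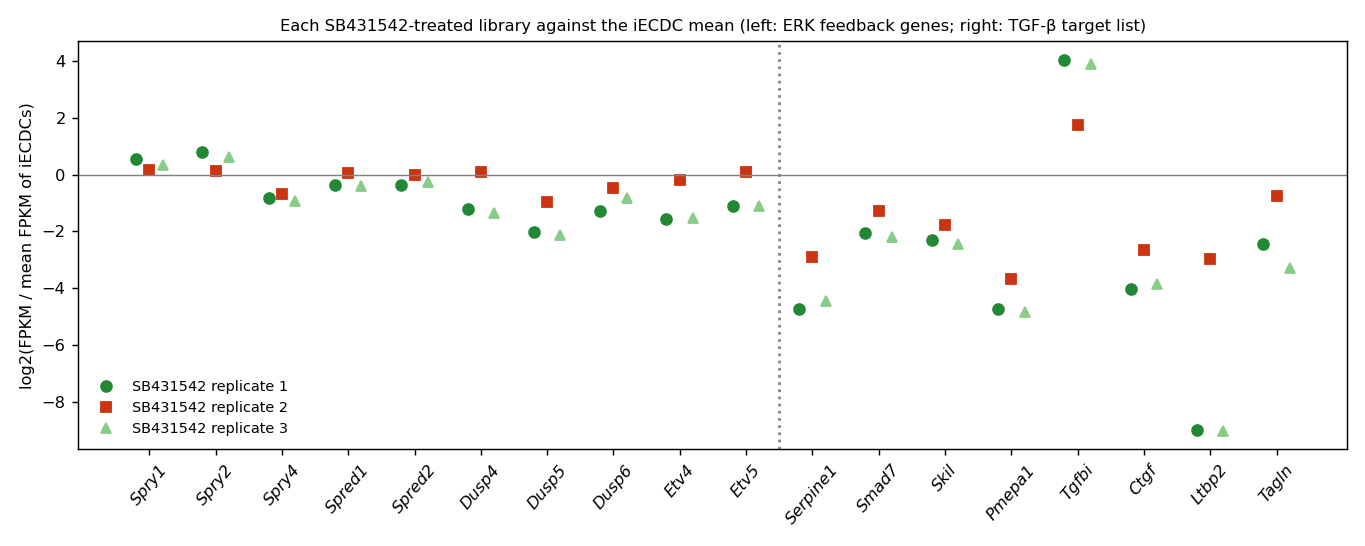
Level of each gene in each SB431542-treated library relative to the iECDC mean, as log2 of the FPKM ratio; the ERK feedback genes are on the left of the dotted line and the 8 TGF-β target genes on the right. Replicate 2 (red squares) is near 0 for Dusp4, Etv4, Etv5, Spred1 and Spred2, where replicates 1 and 3 are below 0, and is nearer to 0 than the others for the TGF-β targets.

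Among the members of these families outside the 10, Dusp9, Spred3 and Etv1 changed between pECDCs and iECDCs, the first 2 upward (log2 fold change 1.54 and 0.34) and Etv1 downward (-0.83, adjusted p = 0.0133), out of 9 genes tested (16.4% of all genes passed). In treated cells over iECDCs Dusp16, a JNK and p38 phosphatase, rose by 0.57 (adjusted p = 0.0119) and Etv1 by 0.68. Dusp9, an ERK phosphatase, fell by 1.45 (adjusted p = 0.0235), at 30.0% of all genes called. Without iECDC replicate 3 only 1 gene of this list passed there, upward (13.5% of all genes), and the call of Dusp9 was lost. Without treated replicate 2, 2 rose and 2 fell (25.3% and 24.8% of all genes). Over pECDCs only Dusp16 passed in this list, rising by 0.77 (adjusted p = 0.00192), at 34.8% of all genes called. Dusp9 and Etv1 were low throughout, at 0.545 to 2.84 and 0.284 to 0.699 FPKM. Dusp2, with at most 6 counts in a library, was not tested.

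Of 14 other genes that ERK induces or that restrain the pathway, 4 passed between iECDCs and pECDCs (16.4% of all genes did). Fosl1, a Fos-family subunit of AP-1, rose by 0.82 (adjusted p = 7.6e-05) and Epha2, an ephrin receptor, by 0.69 (adjusted p = 0.000395), while Epha4 fell by 2.55. Epha4 was low throughout, at 0.542 to 0.748 FPKM in pECDCs and at most 0.202 in iECDCs and 0.106 in treated cells. Without iECDC replicate 3, 8 of the list rose and 3 fell (15.5% and 16.2% of all genes). In treated cells over iECDCs 5 of the 14 passed, all lower (14.0% of all genes were called lower), with a list median of -0.54. Rasa1, which switches Ras off, fell by 0.91 (adjusted p = 0.00467), Epha2 by 1.47 (adjusted p = 0.00616) and Ier3 by 0.56 (adjusted p = 0.0381). Without treated replicate 2, 9 fell and 2 rose (24.8% and 25.3% of all genes). Fosl1, named after its values were seen, passed without that library and fell by 2.24, at 20.6, 76.5 and 21.9 FPKM in treated replicates 1, 2 and 3 and 98.1 to 102 FPKM in iECDCs. Over pECDCs 3 of the 14 fell, with Epha4 (-3.05) and Rasa1 (-0.58) among them, and 2 rose, Egr1 by 0.50 (17.0% and 17.9% of all genes). Leaving out treated replicate 2 there gave 10 lower and 2 higher (32.3% and 31.7% of all genes).

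The core cascade from adaptor to ERK was described by 20 genes. Of these, 2 passed between iECDCs and pECDCs (16.4% of all genes did), the scaffold gene Ksr1 lower by 0.31 (adjusted p = 0.0139) and Hras higher by 0.42 (adjusted p = 0.0385). In treated cells over iECDCs 4 rose and 2 fell (16.0% and 14.0% of all genes), at a list median of 0.01. Ksr1 rose by 0.96 (adjusted p = 0.00120), and the Raf kinase gene Araf fell by 0.47 (adjusted p = 0.0132). Without treated replicate 2, 6 rose and 5 fell (25.3% and 24.8% of all genes). Over pECDCs 8 rose and 4 fell in treated cells (17.9% and 17.0% of all genes), again with Ksr1 higher (0.67) and Araf lower (-0.46). Leaving out treated replicate 2 there gave 10 higher and 7 lower (31.7% and 32.3% of all genes).

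Receptor tyrosine kinases and their ligands stand at the head of the pathway. Of 18 such genes, 5 rose and 6 fell in iECDCs over pECDCs (7.21% and 9.21% of all genes), and Fgf2 fell by 1.201 (adjusted p = 7.4e-05), Egfr by 0.84 (adjusted p = 9.0e-05) and Hgf by 3.04 (adjusted p = 0.000145). In treated cells over iECDCs 5 rose and 5 fell (16.0% and 14.0% of all genes). Fgf2, a fibroblast growth factor and ligand of this pathway, fell by 3.52 (adjusted p = 0.00287), Hgf rose by 2.42 (adjusted p = 0.00264) and the receptor gene Pdgfra rose by 0.96 (adjusted p = 0.00180). Fgf2 had 18.4 to 19.2 FPKM in pECDCs, 7.004 to 9.09 in iECDCs and 0.336, 1.44 and 0.326 in treated replicates 1, 2 and 3. Other ligand genes of the list were ordered otherwise, Hgf being lowest and Hbegf highest in iECDCs. A link between the level of any ligand and that of the feedback genes was not tested. Without treated replicate 2, 6 rose and 7 fell (25.3% and 24.8% of all genes). Over pECDCs 4 of the 17 genes tested rose and 5 fell (17.9% and 17.0% of all genes), Fgf2 by 4.70 (adjusted p = 0.00114), with Tgfa higher by 1.08 and Met higher by 0.55.

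**Figure D4:**
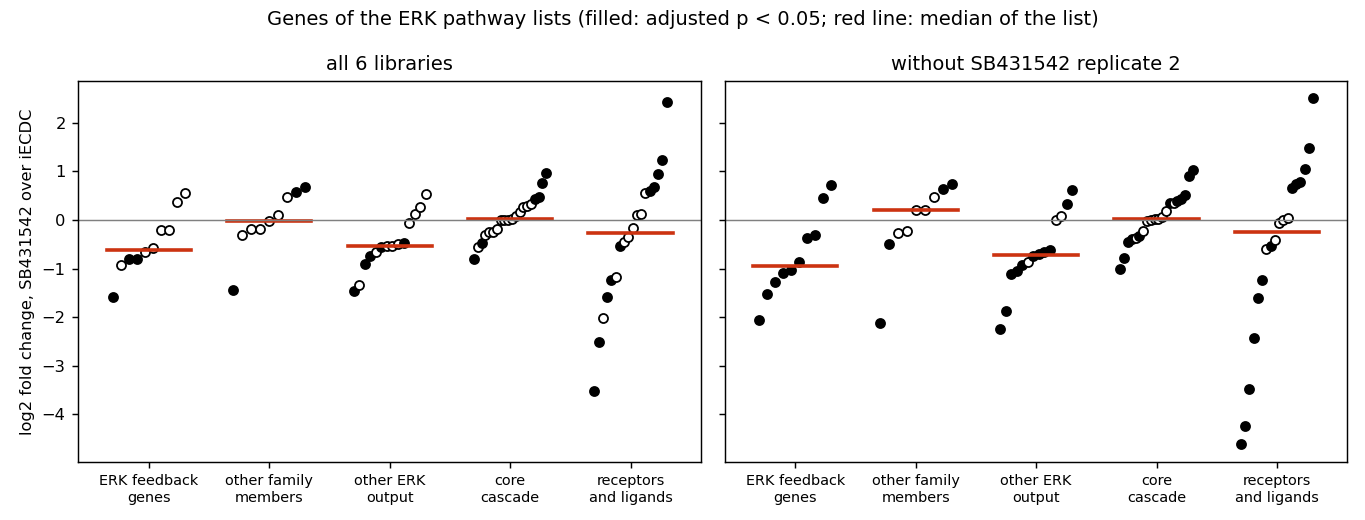
Log2 fold change of SB431542-treated cells over iECDCs for each gene of the ERK feedback genes and the 4 pathway lists, with all 6 libraries (left) and without treated replicate 2 (right); filled points have an adjusted p under 0.05 and red lines are list medians. The medians of the feedback genes (-0.62, then -0.95) and of the other ERK output genes (-0.54, then -0.72) lie below 0, and that of the core cascade lies near 0 (0.01, then 0.02).

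Genes that followed each member over the 9 libraries were looked up among 11384 genes by Pearson's r of log2 CPM, as a description in which the points share the 3 groups and the libraries that stood apart. The closest gene was Zfp1 for Spry1 (r = 0.958), Glmp for Spry2 (0.976), Lats2 for Spry4 (0.995), Sipa1l1 for Spred1 (0.993) and Cfap20 for Spred2 (0.982). It was 1110004F10Rik for Dusp4 (0.990), Mrps2 for Dusp5 (0.995), Rps4l for Dusp6 (0.988), Trim59 for Etv4 (0.997) and Gpc1, a heparan sulfate proteoglycan, for Etv5 (0.993). The 3 closest genes of Spred1 included Dusp4 (r = 0.9804), the only case in which a member was among the 3 closest of another. Between members, r was 0.975 for Dusp4 and Etv5, 0.953 for Spred2 and Dusp6 and 0.933 for Dusp5 and Etv4, and it was 0.439 for Dusp6 and Etv4. Spry2 had a negative r with every member other than Spry1, down to -0.83 with Etv4. Spry1 likewise had a negative r with every member other than Spry2, from -0.057 with Dusp6 to -0.63 with Dusp5.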

How the data were processed

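RNA was sequenced from 3 libraries each of pECDCs, iECDCs and SB431542-treated cells, grouped by their labels. The authors deposited whole-number read counts per gene without normalization, and FPKM values, each the count over gene length and over 1 constant per library (within 0.5%, for all but 1 of 179215 values). The submitters' processing notes name TopHat2 2.0.9, Bowtie2 2.0.6 and the build mm9, whereas the coordinates in the table are those of GRCm38, and for 9 of the 10 genes they equal GENCODE M21 (all but Spry4). The counting program and its strand setting are not given in the sources used here. Labels and methods name different library kits. The authors' own comparison columns (15, with fold changes, p-values and group means) and a gene annotation table were not used.

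The test was that of edgeR 4.0.16, run in R 4.3.3 (TMM, filterByExpr with a minimum count of 10 and a minimum total of 15, quasi-likelihood test, Benjamini-Hochberg adjustment over all genes tested, threshold 0.05), fitted on the 6 libraries of each comparison. Standard errors of log2 fold changes were derived from that test, as the absolute log2 fold change over the square root of its F statistic. The code was tested on simulated data. Alternatives were DESeq2 1.42.0, RLE and upper-quartile scaling, no filter or 10 counts as a minimum throughout, a fit of all 9 libraries, a replicate block and each library left out. Libraries were also compared by the chi-square of their counts and by Pearson's r of log2 CPM. All 10 members are named in each comparison, and of other lists at most the 3 genes with the lowest adjusted p, plus genes a result turns on; 1 result of these lists is not reported here. Likeness used genes of at least 1 FPKM and a prior count of 2. The members and lists were chosen with earlier results of these data known. Other steps used python 3.11.15 with matplotlib 3.10.9, numpy 2.4.6 and pandas 2.3.3.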

Additional observations from a re-analysis of the deposited data

How the results depend on the processing

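Among the 10 genes, 3 passed in iECDCs over pECDCs, 3 in treated cells over iECDCs and 4 in treated cells over pECDCs, beside 2258, 4061 and 4881 of all genes. With all 9 libraries in the fit the first comparison gave 1 of the 10 and 671 genes. With no filter on low counts the second gave 7 of the 10 and 4840 of 25160 genes. Leaving out 1 library at a time gave 3 to 7 of the 10 and 1036 to 4467 genes in the first comparison, 2 to 10 and 1707 to 7001 in the second, and 2 to 9 and 2453 to 9188 in the last, the highest counts being those without iECDC replicate 3 or treated replicate 2. Without both of these libraries the second comparison gave 10 of the 10 and 8951 genes. DESeq2, RLE and upper-quartile scaling and the stricter filter gave 3 or 4 of the 10 in every comparison, and RLE and upper-quartile scaling moved the median of all genes by under 0.1 on the log2 scale.

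No pairing by replicate number was seen: correlations of same-numbered deviations ran from -0.21 to 0.03, and those of other pairs from -0.10 to 0.19. With the libraries that stood apart in these deviations, the check cannot show whether the numbers stand for shared cultures. With the replicate number as a block, 3, 5 and 4 of the 10 genes and 1791, 3038 and 3886 of all genes passed, Dusp4 and Etv4 being added in treated cells over iECDCs.

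Signs turned for differences near 0 and outside the threshold. In iECDCs over pECDCs, the log2 fold change of Spry2 ran from -0.23 to 0.11 with 1 library left out, above 0 without iECDC replicate 3. That of Spred1 ran from -0.047 to 0.0026, above 0 without pECDC replicate 2 or iECDC replicate 3, and that of Etv5 from -0.054 to 0.037, above 0 without pECDC replicate 1 or 2 or iECDC replicate 1 or 2. Etv5 was 0.0039 with DESeq2 and 0.0026 with RLE scaling. In treated cells over pECDCs, Spry1 ran from -0.13 to 0.071, above 0 without pECDC replicate 3 or treated replicate 2. The cause was not tested.

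With 3 libraries a group, counts of 191 to 5189 for these genes leave the spread between libraries as the main limit on precision.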
